A study of Homo sapiens with 26 samples.

Results

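Macrophages that had spent 14 days in an engineered heart tissue with cardiomyocytes and FB cells were compared with macrophages kept alone in the same device for the same time. The tissues were Biowires, in which cells grow as a thin strip suspended between flexible wires. The macrophages came from the human embryonic stem cell line hES2 and the cardiomyocytes from the line ESI17, so each cell type stands for 1 line. FB is read here as fibroblasts, a word the labels do not spell out. The comparison used 6 of the 26 samples of the series, 3 libraries from tissues of all the cell types (CM+FB+MF) and 3 from Biowires of macrophages only (MF), chosen by their labels and not by any measured value. The table held 19206 genes, of which 13952 passed the filter on low counts and were tested.

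Per the labels, each Biowire was digested for 40 min with collagenase I, hyaluronidase, DNase I, Dispase, a ROCK inhibitor and Flavopiridol at 1 uM, and cells were then sorted by CD14 and CD45 before RNA extraction. Flavopiridol blocks transcription. Since the sort used CD14 and CD45, CD14 and PTPRC, which encodes CD45, are not read as findings. Other libraries of the series served beside the comparison. Biowires of FB cells and macrophages (FB+MF, n = 3) shared the fit and give a further level for each gene. Macrophages labelled as digested controls, from the same cell mixes but with only the 40 min digestion as their time point (n = 3 per mix), give the same contrast in another setting. Cardiomyocytes sorted on day 3 from CM+FB Biowires give the RNA that cardiomyocytes could bring into a macrophage library. The sources used here do not say whether replicates were cultured separately. The p-values then describe the scatter of these libraries alone, which may be technical.

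Some macrophages of the heart settle there before birth. Heart macrophages take up dying cells and cell debris, and sets of them differ by genes for scavenging, lipid export and antigen presentation. Their identity is held by the growth factor receptor CSF1R and by lineage transcription factors such as PU.1, and it is shaped by the surrounding tissue. The labels pair a tissue with macrophages alone, which asks how the same cells differ when cardiomyocytes and FB cells surround them.

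CM+FB+MF libraries held 6983800 to 8041669 counts and MF libraries 8265064 to 13665322, so the tissue group was sequenced less deeply. Levels are given as CPM, a gene's counts per 1000000 counts of its library, unless a value is called a log2 fold change. Macrophage markers summed to 17977 to 19249 CPM in CM+FB+MF and 14678 to 16317 CPM in MF, and none of the 20 was at 0 in all 6 libraries. The list includes CD14 and PTPRC, on which the cells were sorted. The lymphoid marker GNLY was the one marker in the table, over all 9 cell type lists, that was at 0 in all 6. Cardiomyocyte markers summed to 1285, 3049 and 2151 CPM in CM+FB+MF replicates 1, 2 and 3, against 49.0 to 79.6 CPM in MF. Fibroblast markers summed to 328 to 418 CPM against 425 to 526, endothelial markers to 348 to 382 against 511 to 591, and lymphoid markers to 2.29 to 4.58 against 0.121 to 0.805 (exact two-sided permutation p = 0.1 for each of the 5, the smallest that 3 against 3 libraries allow). Without SPARC, the most abundant marker of its list, the fibroblast difference turned from lower to higher (1.42 on the log2 scale of summed CPM), and without NKG7 the lymphoid one turned from higher to lower (-0.15). Smooth muscle markers (exact permutation p = 0.2), pluripotency markers (0.8), mast cell and granulocyte markers (0.7) and erythroid and megakaryocyte markers (0.4) overlapped between the groups. In bulk libraries, fewer cells of a type and less RNA per cell cannot be told apart.

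Cardiomyocyte RNA was present in all the CM+FB+MF libraries at a low share. Scaled to the marker sum of sorted cardiomyocytes, it came to 0.799%, 1.95% and 1.37% in replicates 1, 2 and 3, and to between -0.011% and 0.0094% in the MF libraries. The share times a gene's level in sorted cardiomyocytes gives an expected carried CPM. That value reached 10% of a gene's level in CM+FB+MF for 780 of the genes tested. The estimate is rough, since the cardiomyocytes were sorted on day 3 and the macrophages on day 14, and single markers ran up to 2.56%, 5.83% and 7.80% (TNNI3). It covers cardiomyocyte RNA only, and RNA carried from FB cells was not estimated. Of 9 fibroblast markers tested, 3 were called higher and 1 lower in Biowires. In the digested controls all 9 were called higher in CM+FB+MF.

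**Figure D1:**
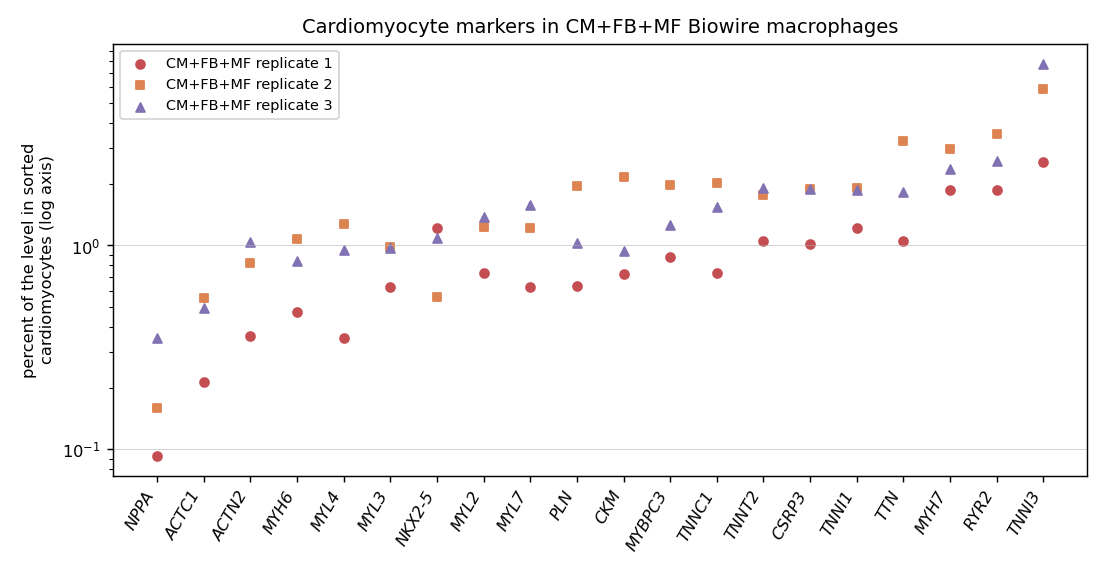
Level of 20 cardiomyocyte markers in each CM+FB+MF macrophage library as a percentage of the mean level in sorted CM+FB cardiomyocytes (log axis, 1 symbol per replicate, markers ordered by their mean). Most markers lie near the shares of 0.799%, 1.95% and 1.37% estimated from the whole list, NPPA lies lowest and TNNI3 highest.

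Heart muscle transcripts were absent or nearly so in macrophages alone. TNNT2, the thin filament protein troponin T, stood at 76, 127 and 138 CPM in CM+FB+MF and at 0 in the MF libraries, at least 1223-fold higher against a floor of 3 counts over the group. The atrial light chain MYL7 stood at 26.1, 50.5 and 65.9 CPM and the calcium release channel RYR2 at 25.1, 47.5 and 34.9 CPM, both with 0 counts in MF. These 3 genes are among the markers that define the share. Replicate 1 was lowest for each, while TNNT2 and MYL7 were highest in replicate 3 and RYR2 in replicate 2. Their expected carried CPM was 87.2%, 120.3% and 51.5% of the measured level. HSPB7, a small heat shock protein of muscle, MYL3 and DES, the intermediate filament desmin, were also at 0 in MF and had expected carried values of 99.5%, 159.5% and 61.6% of their level. Of these, MYL3 is also among the markers that define the share. These 6 genes had the largest rises among genes at or past 10%, and all 6 were also called higher in the digested controls.

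Of the 13952 genes tested, edgeR's quasi-likelihood test with Benjamini-Hochberg adjustment called 5249 (37.6%) at an adjusted p of 0.05. In CM+FB+MF macrophages 2490 (17.8%) were higher and 2759 (19.8%) lower, beside a median log2 fold change over all genes tested of 0.0024. The genes called higher took 33.7% of all counts in CM+FB+MF and 16.3% in MF, and those called lower took 21.2% and 39.7%. Over the genes called, the median size of the change was 0.92 on the log2 scale. At least 1 log2 unit was reached by 1292 rises and 1141 falls, and at least 5 units by 165 rises and 105 falls. Among all genes tested, 3390 (24.3%) had every CM+FB+MF library above every MF library and 3428 (24.6%) had every one below. Expected carried CPM reached 10% of the level for 234 of the genes called higher and 159 of those called lower. Counts of list members below are read against these shares, since 37.6% of all genes tested passed.

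**Figure D2:**
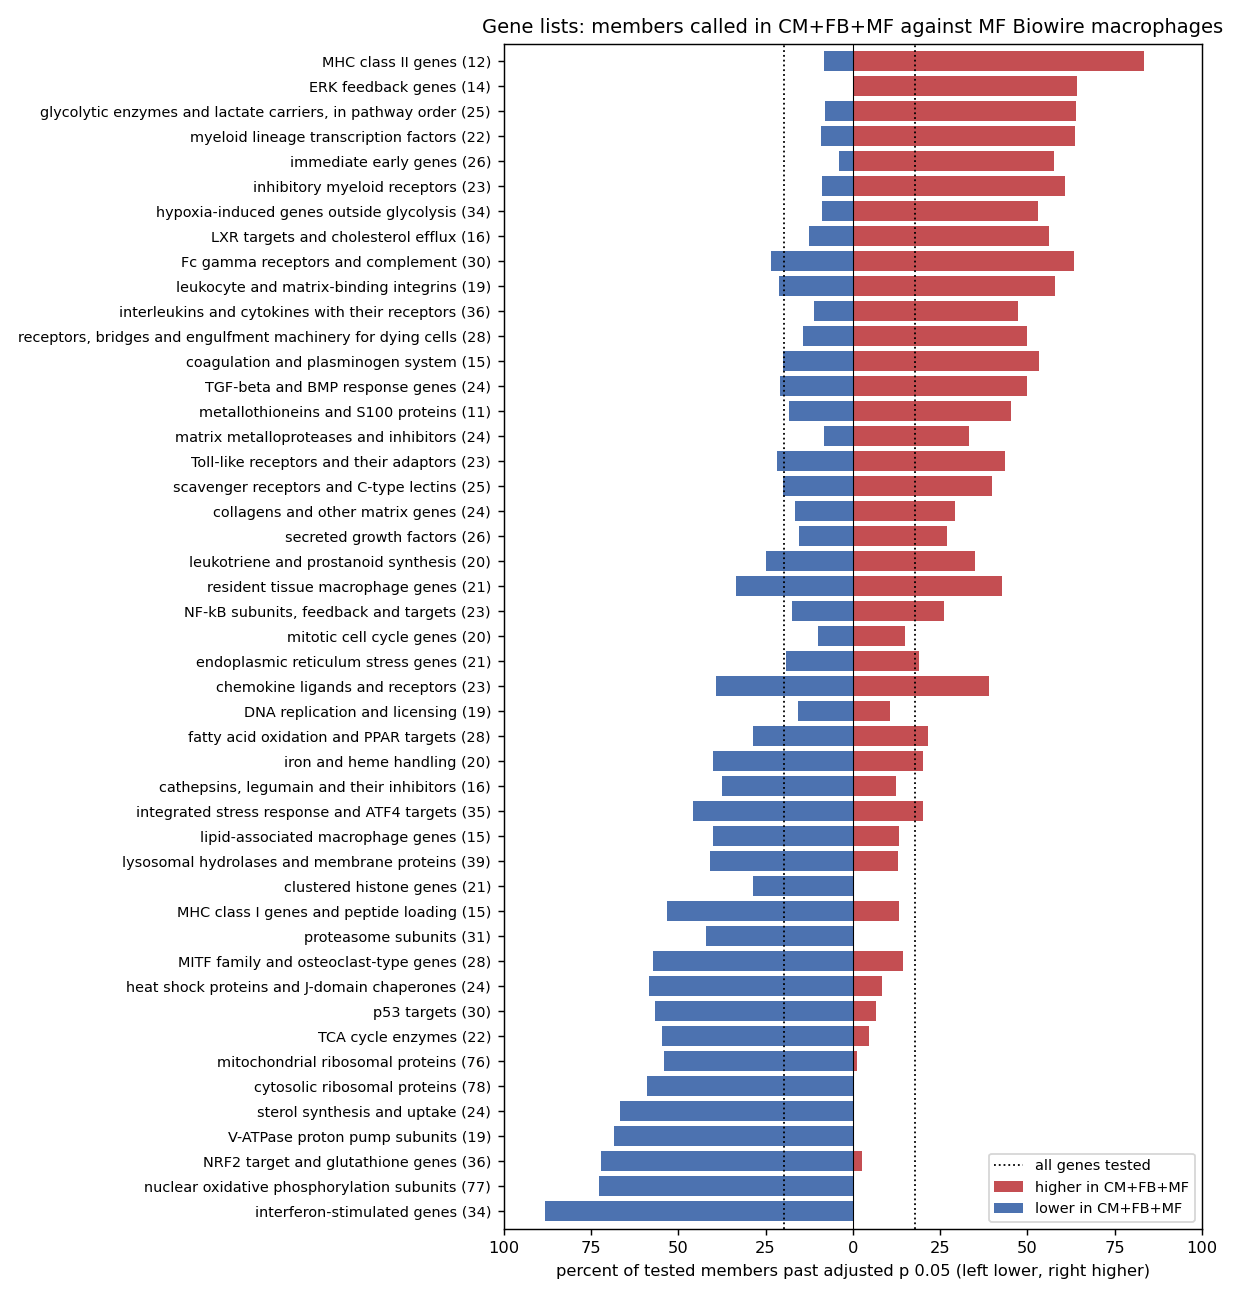
Percentage of the tested members of each gene list that passed adjusted p = 0.05, to the right where higher in CM+FB+MF than in MF macrophages and to the left where lower, with the number tested in brackets. Dotted lines mark the shares over all genes tested, 17.8% higher and 19.8% lower. Among the lists drawn, MHC class II genes had the largest share of members called higher (10 of 12), and interferon-stimulated genes the largest share called lower (30 of 34).

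The largest rises with little expected carried cardiomyocyte RNA were of genes that were silent or nearly so in macrophages alone. NPTX1, a secreted pentraxin known from synapses, stood at 176, 124 and 155 CPM in CM+FB+MF and had 0 counts in the 3 MF libraries (at least 1619-fold higher, adjusted p = 1.06e-09). In FB+MF it was at 0.0805, 0 and 0 CPM, so only the tissue with cardiomyocytes had a sizeable level. ALOX5AP, which hands arachidonic acid to 5-lipoxygenase, stood at 22.9, 31.8 and 33.5 CPM against 0 (at least 316-fold, adjusted p = 4.43e-08). ADAM8, a membrane metalloprotease of leukocytes, stood at 404, 392 and 444 CPM against 1.33, 0.439 and 0.194 (log2 fold change 9.40 ± 0.44, adjusted p = 3.62e-09). CD93, a surface receptor of myeloid and endothelial cells, stood at 144, 115 and 136 CPM against 0.363, 0.22 and 0 (9.37 ± 0.31, adjusted p = 1.94e-10). Every CM+FB+MF library was far above every MF library for these genes, but the rule that named the largest rises required libraries without overlap.

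The interleukin receptor gene IL21R, the kinesin gene KIF26A, the phospholipid transporter gene ABCB4, LINGO3 and C12orf75 also stood at 0 in MF. In CM+FB+MF, IL21R ranged over 7.96 to 12.6 CPM, KIF26A over 8.16 to 9.56, ABCB4 over 4.73 to 11.3, LINGO3 over 5.1 to 8.76 and C12orf75 over 5.6 to 11.6. IGFBP5, which binds insulin-like growth factors, had 1 count over the MF group and a ratio of 1199 (95% counting interval 215 to 47404). The growth factor gene IGF2 stood at 60.3, 59.6 and 59.9 CPM against 0, 0.146 and 0.0971, a ratio of 644 (95% counting interval 219.8 to 3125). VCAN, the large matrix proteoglycan versican, stood at 557, 629 and 655 CPM against 0.121, 0 and 3.4 (9.07 ± 0.56). All CM+FB+MF libraries were high for both, and MF replicate 3 held most of the small MF level of VCAN. IGF2, VCAN and C12orf75 also rose in the digested controls (8.20 ± 1.43, 11.76 ± 1.15 and 6.48 ± 1.12), with expected carried CPM at 2.58%, 6.56% and 7.61% of the level.

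The largest falls were of genes with low levels in macrophages alone and none in the tissue. APOD, a lipocalin that carries lipids, stood at 16, 19 and 24.3 CPM in MF and at 0 in CM+FB+MF (at least 149-fold lower, adjusted p = 9.17e-07). TRPM1, a cation channel gene that MITF drives in pigment cells, stood at 9.8, 8.12 and 13.6 CPM in MF and at 0 in CM+FB+MF (at least 77.1-fold lower). CCR7, the chemokine receptor that guides cells to lymph nodes, stood at 2.66, 14.9 and 7.57 CPM in MF and at 0 in CM+FB+MF (at least 70.6-fold lower). MF replicate 1 was lowest of the MF libraries for CCR7. The groups did not overlap for any of these genes, but the rule that named the largest falls required that. SLCO4C1, PANX3, SPATS1, IRX6, EPHA5, LOC344887 and OR8A1 likewise had 0 counts in CM+FB+MF and at least 39.7-fold to 59.4-fold lower levels. DAPL1 stood at 0.135, 0 and 0 CPM against 27.9, 26.2 and 32, a ratio of 0.00156 (95% counting interval 3.95e-05 to 0.00873), and the olfactory receptor gene OR8G5 had a ratio of 0.00222 (5.61e-05 to 0.0124).

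Some abundant transcripts had the largest differences in CPM. SPP1, the secreted glycoprotein osteopontin, stood at 12257, 13229 and 14642 CPM against 380.4, 532 and 390.4 and gained most. CTSB, a lysosomal cysteine protease, stood at 16826, 16110.2 and 17262 CPM against 9207, 8241 and 7307 (1.01 ± 0.11, adjusted p = 6.32e-06). ACTB, cytoplasmic actin, stood at 10793, 9403 and 10553 CPM against 5720.2, 4794 and 4229.5 (1.05 ± 0.12, adjusted p = 1.71e-05). The groups were apart for each of these, with CTSB and ACTB highest in MF replicate 1 within the MF group. The other 7 of the 10 largest gains were STAB1, MMP12, the scavenger receptor genes CD163L1 (3.38 ± 0.27) and LRP1 (1.00 ± 0.087), FCGBP (4.15 ± 0.41), and the stable RNAs RNA28S5 (0.66 ± 0.15) and RPPH1 (1.12 ± 0.13).

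FTH1, the ferritin heavy chain, lost most, at 10499.8, 9446 and 9822 CPM against 20380.5, 19683 and 20004 (-1.02 ± 0.10, adjusted p = 2.41e-06). PSAP, the precursor of the saposins that help break down sphingolipids, stood at 4637, 4175 and 4330.4 CPM against 15607, 13046 and 12472 (-1.65 ± 0.12). GPNMB, a lysosomal membrane glycoprotein, stood at 5380.0, 5166 and 5186 CPM against 15763, 13212 and 13478 (-1.44 ± 0.10). All libraries of CM+FB+MF were below all of MF. CTSD, CTSK, APOE (-0.82 ± 0.11), CTSZ, CD68 (-0.58 ± 0.10), A2M (-1.25 ± 0.17) and GM2A made up the other 7 of the 10 largest losses, so lysosomal proteases were among both the gains and the losses.

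**Figure D3:**
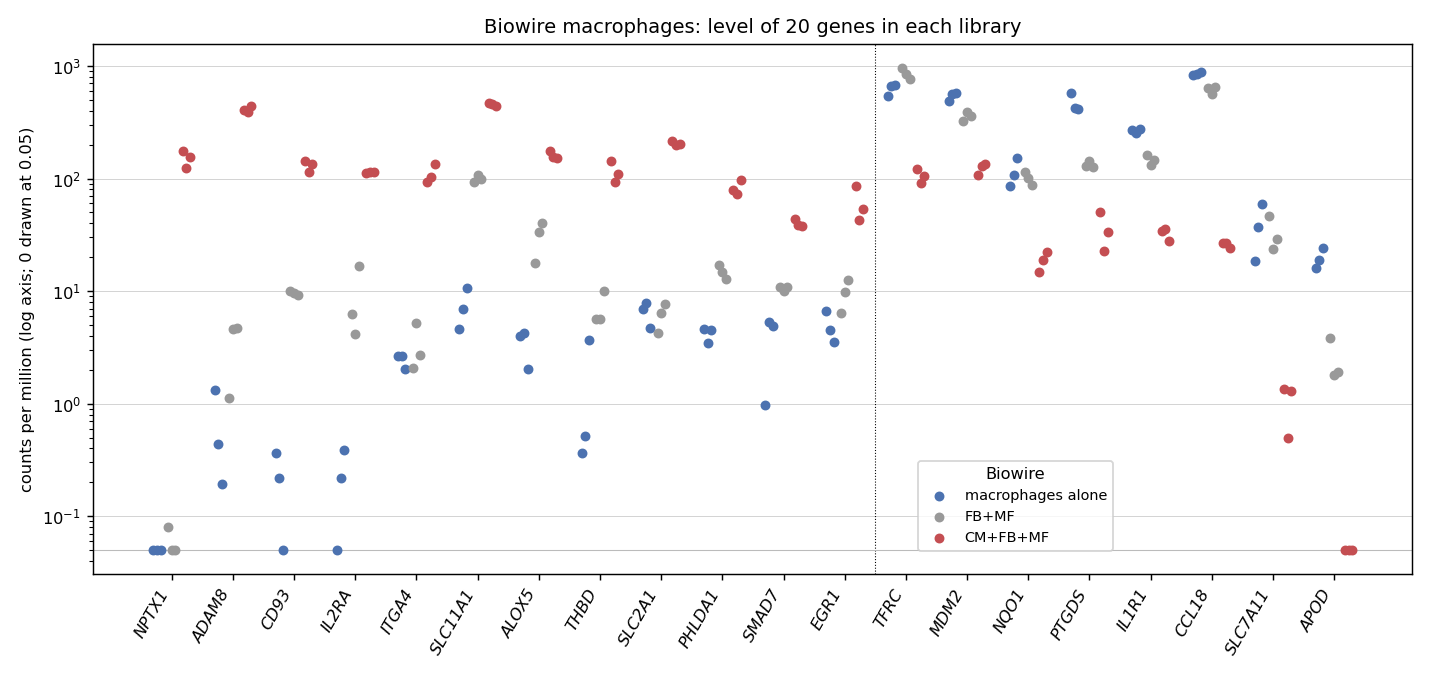
Level of 20 genes in each Biowire macrophage library in CPM (log axis, 0 drawn at 0.05), for macrophages alone, FB+MF and CM+FB+MF, with called rises left of the dotted line and called falls right of it. CM+FB+MF and MF libraries do not overlap for any gene drawn, which the naming rule required of the largest rises and falls. FB+MF libraries lie between them for genes such as SLC11A1 and MDM2, within the MF range or near it for NPTX1 and ITGA4, and above both for TFRC.

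Transcription factors of the myeloid lineage were mostly higher. Of 22 tested, 14 rose and 2 fell (1 without CM+FB+MF replicate 2), with a median log2 fold change of 0.75. SPI1, which encodes PU.1, stood at 569.7, 479.6 and 548 CPM against 338, 331 and 312 (0.70 ± 0.11, adjusted p = 0.000247). RUNX1, which acts from blood stem cells onward, stood at 194, 205 and 202 CPM against 57.5, 57.2 and 44.8 (1.91 ± 0.16, adjusted p = 5.13e-07). No library of the groups overlapped for these genes. MAF (0.80 ± 0.16) and KLF4 (1.37 ± 0.22) rose as well. KLF2, a factor linked to quiescent cells, stood at 22.2, 13.9 and 12.7 CPM against 1.45, 1.76 and 0.583 (3.66 ± 0.42). ID3, an inhibitor of helix-loop-helix factors that responds to BMP signals, stood at 45.1, 49 and 36.5 CPM against 0.726, 1.1 and 0.486 (5.75 ± 0.33, adjusted p = 1.79e-08). ID3 was low in FB+MF as well (0.322, 0.0937 and 0.451 CPM), and it was the member of this list that was also called higher in the digested controls (3.84 ± 0.57).

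Of 5 colony-stimulating factor and receptor genes tested, 3 rose and 1 fell. CSF1, the ligand of CSF1R, stood at 12.1, 16.7 and 11.5 CPM against 82.2, 101 and 82.8 (-2.73 ± 0.23, adjusted p = 6.85e-07). The CM+FB+MF libraries were low throughout, and FB+MF (103, 57.6 and 63.9 CPM) was not. CSF2RA, the ligand-binding chain of the GM-CSF receptor, stood at 63.3, 89.5 and 95.6 CPM against 8.11, 12.1 and 10.5 (3.00 ± 0.20, adjusted p = 6.74e-08). The shared signalling chain CSF2RB rose less (0.43 ± 0.13, adjusted p = 0.0188), and its call was lost without CM+FB+MF replicate 1 or MF replicate 3.

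Fc gamma receptors and complement genes changed mostly upward, with 19 of 30 higher, 7 lower and a median of 1.14. FCGR3A, an activating receptor for antibody-coated targets, stood at 1351, 1358 and 1515 CPM against 33.5, 88.2 and 41.8 (4.68 ± 0.28, adjusted p = 3.23e-08). VSIG4, a complement receptor that takes up C3b-coated particles, stood at 648, 617 and 712 CPM against 45.3, 34.5 and 17.4 (4.33 ± 0.28, adjusted p = 5.46e-08). C5AR1, the receptor of the anaphylatoxin C5a, stood at 95, 104 and 102 CPM against 12.1, 12 and 6.12 (3.30 ± 0.21, adjusted p = 5.26e-08). MF replicate 2 had the highest FCGR3A of the MF group and still lay far below the tissue libraries. C1QA, which starts the classical complement pathway, rose too (2.90 ± 0.27). FCGR2C (3.02 ± 0.23) and FCGR3B (4.13 ± 0.60) share much of their sequence with FCGR2B and FCGR3A, so how reads were divided among these near-identical genes is uncertain.

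Integrin genes rose more often than they fell. Of 19 integrin genes tested, 11 rose and 4 fell (median 1.09). ITGA4, the alpha-4 chain that binds VCAM1 and fibronectin, stood at 94, 102 and 134 CPM against 2.66, 2.63 and 2.04 (5.48 ± 0.28, adjusted p = 6.63e-09). ITGB7, a beta chain that pairs with ITGA4, stood at 38.3, 45.3 and 47.4 CPM against 2.06, 0.22 and 0.0971 (5.96 ± 0.55, adjusted p = 1.78e-06). ITGAM, the alpha chain of complement receptor 3, rose as well (2.01 ± 0.19). Both partner chains of the alpha-4 beta-7 pair were near 0 in all the MF libraries, and FB+MF held them at 2.09, 5.16 and 2.71 and 1.21, 0.656 and 0.722 CPM. ITGAD (-2.87 ± 0.37) and the laminin-binding ITGA3 (-3.02 ± 0.35) fell.

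Of 23 inhibitory myeloid receptors, 14 rose and 2 fell (median 0.57). SIGLEC10, a sialic acid receptor that dampens signalling, stood at 80.6, 85.2 and 80.6 CPM against 6.17, 10.2 and 8.16 (3.30 ± 0.17, adjusted p = 6.57e-09). LAIR1, an inhibitory receptor for collagen, stood at 247, 215 and 213 CPM against 78.8, 47.4 and 30.7 (2.10 ± 0.26, adjusted p = 2.74e-05). LILRB1, which binds MHC class I, rose from a lower level (2.17 ± 0.35). MF replicate 1 was the highest of the MF group for LAIR1. SIGLEC11 (7.46 ± 0.38) and SIGLEC16 (5.66 ± 0.88) are near-identical copies, so the split of reads between them is uncertain, and SIGLEC16 reached 8.93 without MF replicate 2.

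Toll-like receptor genes changed both ways. TLR2, a sensor of bacterial lipoproteins, stood at 123, 119 and 122 CPM against 24.1, 33.7 and 28.9 (2.06 ± 0.13, adjusted p = 5.38e-08). Its partner TLR1 stood at 56.4, 63.2 and 56 CPM against 15.7, 14.7 and 19 (1.83 ± 0.15, adjusted p = 6.89e-07). TLR6, the other partner, rose by 1.32 ± 0.16 and the TLR4-like CD180 by 1.40 ± 0.14. The groups were apart for all 4 genes. Over the whole list of Toll-like receptors and adaptors, 10 of 23 rose and 5 fell (median 0.26). The falls numbered 3 without CM+FB+MF replicate 2 or replicate 3 and 2 without MF replicate 2.

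Genes for uptake of dying cells were more often higher than lower, and the receptor tyrosine kinases differed among themselves. Of 28 tested, 14 rose and 4 fell. MERTK, a receptor for phosphatidylserine bridged by GAS6 or PROS1, stood at 288, 362 and 303 CPM against 102, 104 and 95.4 (1.65 ± 0.11, adjusted p = 1.03e-07). AXL of the same family stood at 331, 357 and 348 CPM against 167, 264 and 180.0 (0.76 ± 0.19, adjusted p = 0.00661). TYRO3, the remaining family member, was at 0, 0.622 and 1.15 CPM against 1.45, 1.9 and 2.14 and did not pass (adjusted p = 0.14), but was called lower with expected carried counts subtracted (-2.46, adjusted p = 0.0479). MERTK and AXL were higher in all the CM+FB+MF libraries, with MF replicate 2 nearest for AXL. Scavenger receptors and lectins changed both ways, 10 of 25 higher and 5 lower, and 3 lower without CM+FB+MF replicate 2 or MF replicate 2. MRC2, a collagen uptake receptor, rose (4.12 ± 0.40), also in the digested controls (2.39 ± 0.41), and MARCO, a class A scavenger receptor, fell (-1.69 ± 0.21).

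LYVE1, the hyaluronan receptor that marks a set of resident heart macrophages, stood at 64.1, 57.9 and 66.9 CPM against 0.605, 0.878 and 0.583 (6.45 ± 0.41, adjusted p = 5.17e-08). FOLR2, a folate receptor of resident macrophages, stood at 205, 194 and 204 CPM against 117, 84.1 and 60.6 (1.19 ± 0.25, adjusted p = 0.00174). CCL18, a chemokine of alternatively activated macrophages, stood at 26.8, 27 and 24.1 CPM against 824, 852 and 876 (-5.04 ± 0.12, adjusted p = 8.34e-12). LYVE1 and CCL18 had tight libraries on either side, and FB+MF stayed near the MF level for CCL18 (642, 566 and 652 CPM). The list of resident tissue macrophage genes as a whole was split, 9 of 21 higher and 7 lower, with a median of -0.053.

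Antigen presentation differed between its classes. MHC class II genes rose in 10 of 12 cases and fell in 1 (median 1.05). CIITA, the coactivator that switches these genes on, stood at 45.8, 38.3 and 34.4 CPM against 10.4, 22 and 14 (1.34 ± 0.23, adjusted p = 0.000501). HLA-DRA, the alpha chain of HLA-DR, stood at 320.3, 313 and 346 CPM against 169, 225 and 162 (0.81 ± 0.12, adjusted p = 0.000153). The groups were apart for both. The CD74 call (0.43 ± 0.13, adjusted p = 0.0164) was lost without CM+FB+MF replicate 1 or MF replicate 3. HLA genes vary between people and resemble each other, so their read counts carry that uncertainty. MHC class I and peptide loading genes fell in 8 of 15 cases and rose in 2, with 5 falls without CM+FB+MF replicate 3 and 4 without MF replicate 2. TAPBP, which bridges the peptide transporter and class I molecules, stood at 356, 319 and 311 CPM against 476, 531 and 524 (-0.64 ± 0.13, adjusted p = 0.00122). TAP2, a chain of that transporter, stood at 20.7, 19.5 and 23.6 CPM against 29.6, 67.5 and 43.8 (-1.15 ± 0.25, adjusted p = 0.00218). TAP1 overlapped between groups at 37.2, 31.7 and 20.6 CPM against 36.9, 90.3 and 60.2, with MF replicate 1 as low as the tissue libraries (-1.06 ± 0.33, adjusted p = 0.0219), and its call was lost without CM+FB+MF replicate 2, CM+FB+MF replicate 3 or MF replicate 2.

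Interferon-stimulated genes were lower in the tissue and varied widely between libraries. Of 34 tested, 30 fell (median -1.95) and 0 were called higher by edgeR's quasi-likelihood test, by DESeq2 or at an unadjusted p under 0.05. Their summed level was 2474, 1752 and 1543 CPM in CM+FB+MF, 3737, 11227 and 7889 CPM in MF and 6871, 2264 and 2589 CPM in FB+MF. MF replicate 1 lay well below the rest of its group, and FB+MF replicate 1 well above its own group. The count of falls was 33 without MF replicate 1 and 22 without MF replicate 2 or without CM+FB+MF replicate 3. ISG15, a ubiquitin-like protein induced by interferon, stood at 77.2, 17.7 and 26.8 CPM against 111, 704 and 464 (-3.37 ± 0.76, adjusted p = 0.00332). MX1, a GTPase that blocks virus replication, stood at 208, 126 and 94.4 CPM against 311, 858 and 601 (-2.03 ± 0.48, adjusted p = 0.00405). IFIT1, which binds foreign RNA, stood at 49.4, 27.7 and 13 CPM against 35.7, 326 and 186 (-2.58 ± 0.77, adjusted p = 0.0166). ISG15 and MX1 did not overlap between the groups. IFIT1 did, since CM+FB+MF replicate 1 exceeded MF replicate 1, and its call was lost without CM+FB+MF replicate 2, CM+FB+MF replicate 3 or MF replicate 2. Its adjusted p without MF replicate 2 was 0.0792, and without CM+FB+MF replicate 2 it was 0.0636.

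Promoters of ISG15 and IFIT1 are shown because both hold the letters of the interferon response motif close to their start. The motif searched was the core of the interferon-stimulated response element, TTTC and TTTC with 2 free bases between them, on both strands, in the 250 bases before and 50 after the start of each gene (RefSeq, GRCh38.p14). It was present in 17 of the 26 list promoters matched (65.4%), in 15 of 23 of those whose genes fell, and in 3.65% of all 27305 promoters. Capitals mark the matches. ISG15 is on the forward strand at chr1:1013247-1013546 and IFIT1 on the forward strand at chr10:89392373-89392672, and each holds 2 matches, which overlap in ISG15. A match describes the letters only and was not tested for binding.
ISG15: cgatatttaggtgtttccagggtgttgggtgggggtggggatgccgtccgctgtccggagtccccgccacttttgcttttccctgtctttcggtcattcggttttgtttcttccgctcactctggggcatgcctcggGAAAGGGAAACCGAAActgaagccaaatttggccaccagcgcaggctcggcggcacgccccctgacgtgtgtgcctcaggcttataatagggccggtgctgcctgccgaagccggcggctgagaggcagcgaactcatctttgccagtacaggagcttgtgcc
IFIT1: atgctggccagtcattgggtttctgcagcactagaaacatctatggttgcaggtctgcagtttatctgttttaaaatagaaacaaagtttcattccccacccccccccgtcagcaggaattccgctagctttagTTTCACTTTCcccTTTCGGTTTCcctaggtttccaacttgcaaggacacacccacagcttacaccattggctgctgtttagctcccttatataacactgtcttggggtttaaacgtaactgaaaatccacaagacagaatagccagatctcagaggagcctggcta

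Cytokine and chemokine genes changed in both directions. Of 36 interleukins, cytokines and their receptors, 17 rose and 4 fell (median 0.50). IL2RA, the alpha chain of the interleukin-2 receptor, stood at 112, 113 and 114 CPM against 0, 0.22 and 0.388 (8.95 ± 0.58, adjusted p = 5.40e-08). IL1B, the inflammatory cytokine interleukin-1 beta, stood at 26, 23.1 and 34.7 CPM against 2.66, 0.659 and 1.07 (4.31 ± 0.42, adjusted p = 3.06e-06). IL1R1, its receptor, stood at 34.1, 35.8 and 28.1 CPM against 272, 255 and 274 (-3.03 ± 0.13, adjusted p = 1.90e-09). Ligand and receptor stood at opposite ends, with no overlap of libraries. IL10, which restrains inflammation, rose from a low level (9.43, 8.7 and 10.9 against 1.33, 1.98 and 0.777 CPM, 2.79 ± 0.41). TNF (13.9, 9.45 and 10 against 4.6, 4.32 and 9.13 CPM, adjusted p = 0.0605) and IL6 (1.62, 0.373 and 1 against 1.45, 3.95 and 2.23 CPM, adjusted p = 0.138) did not pass. Without MF replicate 3, TNF was called higher (1.30, adjusted p = 0.0218).

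Chemokine genes rose in 9 and fell in 9 of 23 cases. CCL2, which draws monocytes, stood at 175, 146 and 140.0 CPM against 32.5, 74.5 and 49.6 (1.55 ± 0.22, adjusted p = 7.31e-05). CCRL2, an atypical receptor that binds chemerin, stood at 23.3, 17 and 15.8 CPM against 102, 124 and 128 (-2.66 ± 0.17, adjusted p = 4.43e-08). CXCL10, an interferon-induced ligand of CXCR3, stood at 10.9, 3.85 and 0 CPM against 6.53, 242 and 126 (-4.63 ± 1.01, adjusted p = 0.00256). CXCL10 overlapped between the groups, with MF replicate 1 near the tissue libraries as for the interferon-stimulated genes. NF-kB subunits and targets showed no common direction, 6 higher and 4 lower of 23, and 4 higher and 5 lower without CM+FB+MF replicate 1. The feedback regulator BCL3 rose (1.54 ± 0.20), and BIRC3 (-1.35 ± 0.18) and CD83 (-1.77 ± 0.13) fell.

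Immediate early genes, which respond within minutes to growth factors and to handling, rose in 15 of 26 cases and fell in 1 (median 1.12). EGR1, a zinc finger factor, stood at 85.9, 42.5 and 53.6 CPM against 6.65, 4.46 and 3.5 (3.65 ± 0.33, adjusted p = 1.49e-06). ZFP36, which speeds the decay of cytokine mRNAs, stood at 318, 228 and 174 CPM against 18.8, 22.5 and 20.4 (3.55 ± 0.20, adjusted p = 1.95e-08). The nuclear receptor NR4A1 rose as well (3.06 ± 0.48). CM+FB+MF replicate 1 was highest for EGR1 and ZFP36, and also for the summed list at 2393, 1656 and 1581 CPM in CM+FB+MF against 844, 984 and 981 in MF. FOSB was spread widely, at 32.7, 8.83 and 1.15 CPM against 0.363, 0.439 and 0.971 (4.59 ± 0.99, adjusted p = 0.00242), without overlap, and its log2 fold change was 3.05 without CM+FB+MF replicate 1. In the digested controls, which went through a digestion too, the list's median difference was 0.11 and 4 of 26 members were called higher.

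Feedback genes of the ERK pathway, whose transcription tracks growth factor signalling, rose in 9 of 14 cases and fell in 0 (median 1.53). At an unadjusted p under 0.05, 1 was lower by edgeR's quasi-likelihood test, and DESeq2 called 10 higher and 1 lower. PHLDA1 stood at 79.6, 73 and 97.7 CPM against 4.6, 3.44 and 4.47 (4.33 ± 0.19, adjusted p = 2.27e-09). ETV5, an ETS factor, stood at 195, 220.4 and 225 CPM against 32.5, 45.8 and 33.2 (2.51 ± 0.15, adjusted p = 2.76e-08). SPRED1, an inhibitor of RAS activation, stood at 235, 259.6 and 287 CPM against 64, 65.3 and 56.4 (2.06 ± 0.14, adjusted p = 7.17e-08). CCND1, cyclin D1, stood at 80.7, 83.3 and 82 CPM against 10.8, 12.8 and 8.74 (2.92 ± 0.19). All of these were higher in every CM+FB+MF library, and the summed list was 789.7, 829 and 885 CPM against 185, 222 and 205.

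Response genes of the TGF-beta and BMP pathways rose in 12 of 24 cases and fell in 5. SMAD7, a feedback inhibitor of the pathway, stood at 43.9, 38.9 and 37.8 CPM against 0.968, 5.34 and 4.86 (3.38 ± 0.35, adjusted p = 5.21e-06). ACVRL1, a type I receptor, stood at 78.9, 79.3 and 111 CPM against 7.38, 11.9 and 8.74 (3.24 ± 0.20, adjusted p = 3.52e-08). ID1, a BMP target like ID3, stood at 12.1, 3.85 and 11.9 CPM against 0, 0.0732 and 0.583 (5.34 ± 0.90, adjusted p = 0.000618). These libraries did not overlap, with CM+FB+MF replicate 2 lowest for ID1. LTBP1, which stores latent TGF-beta in the matrix, also rose (6.28 ± 0.87), but its expected carried CPM was 169.8% of the level and it rose in the digested controls (8.55 ± 1.07). The ligand TGFB1 was at 323, 310.1 and 338 CPM against 245, 282 and 270.2 and did not pass (adjusted p = 0.113), but was called higher with only the 6 libraries compared in the fit (0.28, adjusted p = 0.0460).

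Genes of leukotriene and prostanoid synthesis went both ways. ALOX5, 5-lipoxygenase, stood at 174, 154 and 153 CPM against 3.99, 4.24 and 2.04 (5.53 ± 0.31, adjusted p = 1.70e-08). LTB4R, the receptor for leukotriene B4, stood at 21.4, 21.5 and 18.2 CPM against 4.23, 4.46 and 3.98 (2.26 ± 0.27, adjusted p = 1.98e-05). PTGS1, the constitutive cyclooxygenase, rose (2.51 ± 0.16). PTGDS, a prostaglandin D synthase, stood at 50.1, 22.6 and 33.8 CPM against 569.5, 423 and 415 (-3.73 ± 0.25, adjusted p = 6.74e-08). ALOX5 and its helper ALOX5AP were thus high together in every CM+FB+MF library and low in every MF library. Over the list, 7 of 20 rose and 5 fell, and 3 fell without CM+FB+MF replicate 2, CM+FB+MF replicate 3 or MF replicate 1.

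Glycolytic enzymes and lactate carriers rose in 16 of 25 cases and fell in 2 (median 1.03), and their summed level was 8879.9, 8634 and 9089.8 CPM against 4535, 4819 and 4970.4. Expected carried CPM was 10% or more of the level for 3 of these genes. With expected carried counts subtracted, 16 were called higher and 2 lower, and the median was 0.82. SLC2A1, the glucose transporter GLUT1, stood at 216, 198 and 204 CPM against 6.9, 7.9 and 4.66 (4.97 ± 0.22, adjusted p = 1.80e-09). HK2, a hexokinase that traps glucose, stood at 446, 328 and 409 CPM against 26.3, 63.8 and 54.6 (3.03 ± 0.29, adjusted p = 2.71e-06). LDHA, which makes lactate, stood at 381, 409 and 442 CPM against 107, 112 and 101 (1.94 ± 0.10, adjusted p = 8.66e-09). The libraries of the groups were apart for each. The transporter SLC2A3 (3.66 ± 0.24), the myeloid hexokinase HK3 (3.97 ± 0.20) and GAPDH (1.46 ± 0.091) rose too. SLC2A1 was at 4.26, 6.37 and 7.67 CPM in FB+MF and rose in the digested controls by 4.65 ± 0.64 (adjusted p = 0.00122), whereas HK2 there differed by 0.14 ± 0.081 (adjusted p = 0.976).

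Hypoxia-induced genes outside glycolysis rose in 18 of 34 cases and fell in 3 (median 0.56). Expected carried CPM was 10% or more of the level for 2 of them. With expected carried counts subtracted, 19 were called higher and 3 lower (median 0.57). EGLN3, an oxygen-sensing hydroxylase that is itself induced by low oxygen, stood at 56, 51.6 and 65.4 CPM against 1.09, 3.51 and 1.55 (4.72 ± 0.33, adjusted p = 1.23e-07). VEGFA, the vascular growth factor, stood at 100.0, 78.1 and 62.9 CPM against 8.47, 9.81 and 15.1 (2.86 ± 0.22, adjusted p = 3.09e-07). HILPDA, a lipid droplet protein, rose less (1.68 ± 0.36, adjusted p = 0.00214). EGLN3 and VEGFA were higher in every CM+FB+MF library. HIF1A, the oxygen-regulated factor itself, is controlled mainly through its protein, and its transcript was at 218, 219 and 174 CPM against 183, 202 and 178 (adjusted p = 0.52). VEGFA (2.72 ± 0.43), AK4 (3.95 ± 0.59), PPFIA4 (2.19 ± 0.48) and PLOD2 (10.52 ± 1.29) were also called higher in the digested controls.

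The promoters of LDHA and HK2 are shown because they hold the core letters of the hypoxia response element. ACGTG on either strand was present in 9 of 23 glycolysis promoters (39.1%), in 18 of 31 hypoxia promoters (58.1%) and in 21.4% of all promoters. Of the promoters whose genes rose, 7 of 15 in glycolysis and 9 of 14 among hypoxia genes held it. Capitals mark the matches, 5 in LDHA at chr11:18394313-18394612 and 2 in HK2 at chr2:74833877-74834176, both on the forward strand, and CACGTG is counted on each strand.
LDHA: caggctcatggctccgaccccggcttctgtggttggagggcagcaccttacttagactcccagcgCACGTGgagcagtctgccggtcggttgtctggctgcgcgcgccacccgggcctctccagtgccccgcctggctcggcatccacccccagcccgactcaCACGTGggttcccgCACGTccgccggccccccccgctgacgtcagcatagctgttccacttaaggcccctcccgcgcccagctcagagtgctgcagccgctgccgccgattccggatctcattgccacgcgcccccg
HK2: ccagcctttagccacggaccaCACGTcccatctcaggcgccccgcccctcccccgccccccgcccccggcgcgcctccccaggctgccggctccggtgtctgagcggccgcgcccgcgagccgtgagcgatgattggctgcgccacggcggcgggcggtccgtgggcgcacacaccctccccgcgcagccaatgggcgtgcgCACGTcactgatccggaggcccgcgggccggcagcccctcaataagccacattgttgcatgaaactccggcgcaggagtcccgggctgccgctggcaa

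Oxidative metabolism and protein synthesis genes fell by small steps in large numbers. Of 77 nuclear oxidative phosphorylation subunits, 56 fell and 0 rose (median -0.56). DESeq2 called 53 lower and 0 higher, and 1 was higher at an unadjusted p under 0.05 in edgeR's quasi-likelihood test. Among them CYCS, cytochrome c, stood at 42.3, 43.3 and 55.1 CPM against 90.1, 101 and 128 (-1.18 ± 0.14, adjusted p = 1.45e-05). SDHB, the iron-sulfur subunit of complex II, stood at 62.1, 57.9 and 60 CPM against 100.2, 115 and 126 (-0.92 ± 0.11, adjusted p = 2.15e-05). No library of CM+FB+MF reached the MF range. Mitochondrial ribosomal proteins fell in 41 of 76 cases (median -0.53), TCA cycle enzymes in 12 of 22 (median -0.47), cytosolic ribosomal proteins in 46 of 78 (median -0.34) and proteasome subunits in 13 of 31 (median -0.28). Left-out libraries moved some of these counts, to 25 for the mitochondrial ribosome without MF replicate 3, to 29 for the cytosolic ribosome without CM+FB+MF replicate 2, and to 7 and 8 for the proteasome without MF replicate 2 and replicate 3. IDH2 was the TCA member that rose (0.67 ± 0.11). Ribosomal protein transcripts summed to 17752, 17501 and 21554 CPM in CM+FB+MF against 25471, 23636 and 24878 in MF, with CM+FB+MF replicate 3 nearest to the MF range. In the digested controls the medians of these 5 lists lay between 0.006 and 0.026.

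**Figure D4:**
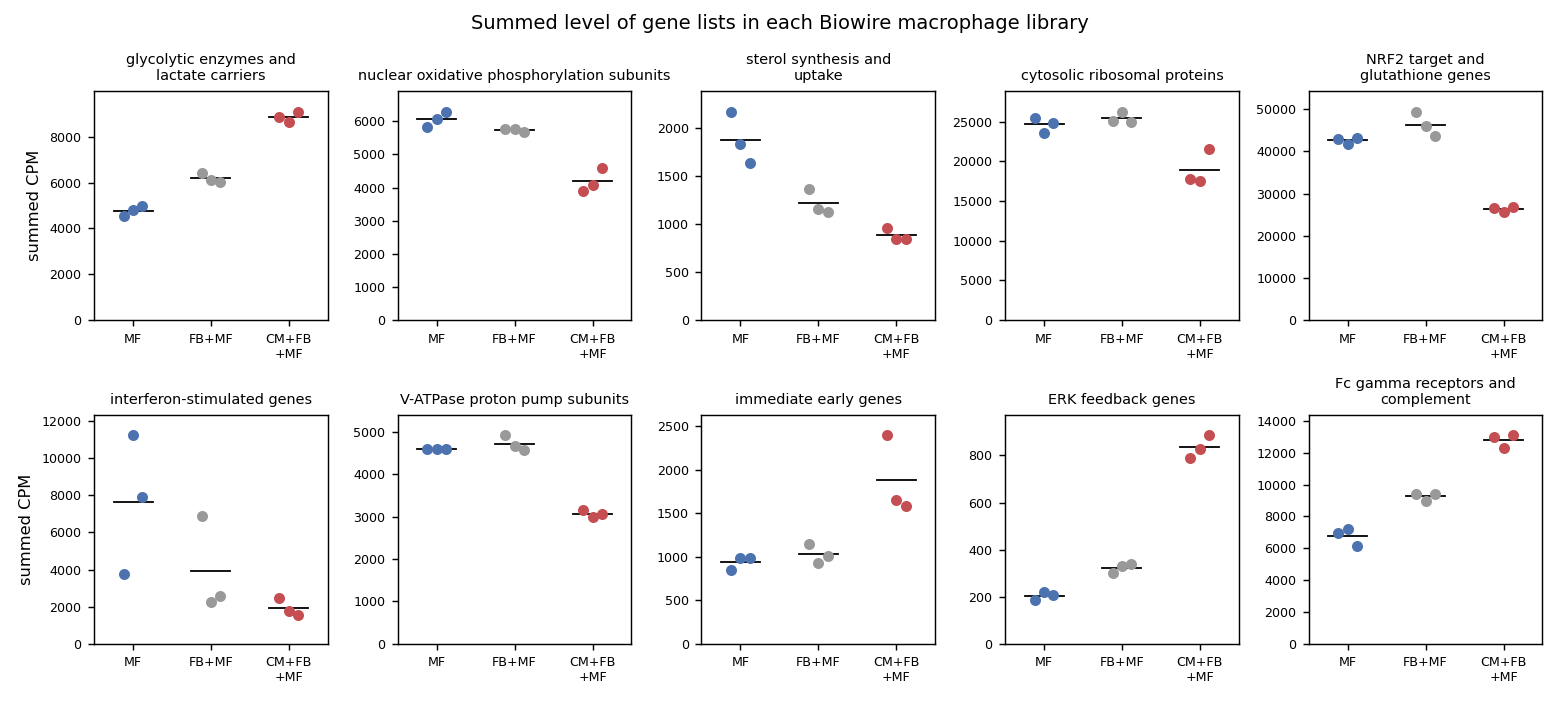
Summed level of 10 gene lists in each Biowire macrophage library in CPM, for MF, FB+MF and CM+FB+MF (points are libraries, lines are means, each axis starts at 0). Sums were higher in CM+FB+MF than in MF for the glycolysis, immediate early, ERK feedback and Fc and complement lists and lower for the other 6, with no overlap of the 3 and 3 libraries. FB+MF stayed close to MF for oxidative phosphorylation, ribosomal proteins and the V-ATPase.

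Sterol synthesis and uptake genes fell in 16 of 24 cases and rose in 0 (median -0.78). None was higher by DESeq2 or at an unadjusted p under 0.05 either. CYP51A1, which demethylates lanosterol, stood at 86.5, 77 and 73.7 CPM against 262, 205 and 178 (-1.45 ± 0.17, adjusted p = 1.60e-05). ACAT2, which condenses acetyl-CoA at the start of the pathway, stood at 17.4, 8.95 and 13.9 CPM against 40.4, 34.5 and 36.4 (-1.47 ± 0.21, adjusted p = 0.000102). Both fell without overlap. LXR targets and cholesterol exporters rose in 9 of 16 cases and fell in 2 (median 0.58), or in 1 without CM+FB+MF replicate 3, MF replicate 2 or MF replicate 3. ABCG1, which exports cholesterol to HDL, stood at 80.3, 96.2 and 108 CPM against 2.9, 4.32 and 4.37 (4.59 ± 0.20, adjusted p = 1.68e-09). MYLIP, a ubiquitin ligase gene that LXR induces, stood at 10.4, 12.8 and 13.6 CPM against 0.726, 1.61 and 1.26 (3.30 ± 0.39, adjusted p = 1.62e-05). ABCG1 in FB+MF was already at 52.5, 55.7 and 39.4 CPM, between the groups. APOE, often listed with these targets, was one that fell. The fatty acid oxidation list was split (6 higher, 8 lower of 28), led by PDK4, which turns pyruvate away from the mitochondria (2.19 ± 0.17, adjusted p = 3.26e-07).

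Genes of lysosomal acidification fell, and hydrolases differed among themselves. The V-ATPase pumps protons into lysosomes, and 13 of its 19 subunits fell while 0 rose (median -0.50). DESeq2 called 13 lower and 1 higher, and 1 was higher at an unadjusted p under 0.05 in edgeR's quasi-likelihood test. ATP6V1A, the catalytic subunit, stood at 105, 111 and 117 CPM against 269, 326 and 327 (-1.47 ± 0.10, adjusted p = 9.94e-08). ATP6V0D2, a subunit typical of osteoclasts and macrophages, stood at 99.6, 95.3 and 107 CPM against 278, 277 and 268 (-1.45 ± 0.10, adjusted p = 1.08e-07). Both were low in every CM+FB+MF library. Lysosomal hydrolases and membrane proteins fell in 16 and rose in 5 of 39 cases (3 rises without MF replicate 3). GM2A, the activator that presents gangliosides for breakdown, stood at 771, 754 and 736 CPM against 2525, 2182 and 2418 (-1.66 ± 0.10), and GALC, which degrades galactosylceramide, stood at 119, 115 and 107 CPM against 52.5, 39.5 and 42 (1.34 ± 0.17). Cathepsins fell in 6 and rose in 2 of 16 cases. CTSS (-1.32 ± 0.091) and CTSZ (-0.97 ± 0.14) fell, and CTSL (0.99 ± 0.10) rose with CTSB.

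MITF and osteoclast-type genes were mostly lower, 16 of 28, with 4 higher (median -0.90). ACP5, the acid phosphatase of osteoclasts, stood at 593, 535 and 571 CPM against 1328, 1235 and 1291 (-1.19 ± 0.14, adjusted p = 1.26e-05). DCSTAMP, which is needed for fusion into multinucleate cells, stood at 3.37, 1.37 and 3.15 CPM against 15.5, 19.5 and 27 (-2.98 ± 0.35, adjusted p = 1.56e-05). TNFRSF11A, the receptor RANK that starts osteoclast formation, went the other way at 29.6, 30.8 and 29.1 CPM against 2.42, 4.1 and 1.46 (3.45 ± 0.35, adjusted p = 4.38e-06). The groups were apart for these genes. MITF itself fell little (-0.50 ± 0.12, adjusted p = 0.00477). The letters TCACGTGA, bound by the MITF and TFEB family, were present in 2 of 13 V-ATPase promoters (15.4%) and 5 of 26 lysosomal promoters (19.2%) against 1.01% of all, and in 0 of the 8 matched lysosomal genes that fell. TCACGTGA contains ACGTG.

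NRF2 target and glutathione genes fell in 26 of 36 cases and rose in 1 (median -1.09), with summed levels of 26529.8, 25504 and 26755 CPM against 43003, 41685 and 43171. NQO1, a quinone reductase, stood at 14.7, 18.8 and 22.3 CPM against 86.6, 107 and 152 (-2.63 ± 0.20, adjusted p = 2.01e-07). TXNRD1, thioredoxin reductase, stood at 115, 156 and 136 CPM against 341, 461 and 661 (-1.84 ± 0.19, adjusted p = 5.15e-06). GCLM, a subunit of the enzyme that limits glutathione synthesis, stood at 16.8, 21.5 and 29.6 CPM against 58.2, 109 and 125 (-2.10 ± 0.29, adjusted p = 6.35e-05). MF replicate 1 was the lowest MF library for each of the 3 genes and still above the tissue libraries. HMOX1, which breaks down heme, fell as well (-1.75 ± 0.13). NFE2L2, which encodes NRF2 and is regulated mainly as a protein, was at 119, 116 and 111 CPM against 93.8, 97.8 and 90.9 (0.29 ± 0.11, adjusted p = 0.0555). It was called higher with RLE size factors (adjusted p = 0.0468), with library totals only (0.0478), by DESeq2 (0.0418) and with expected carried counts subtracted (0.0443).

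Targets of ATF4 and of the integrated stress response fell in 16 of 35 cases and rose in 7 (median -0.42), with 4 rises without CM+FB+MF replicate 1 or MF replicate 1. Expected carried CPM was 10% or more of the level for 3 of these targets. Subtracting expected carried counts left 7 higher and 16 lower. DDIT3, the factor CHOP, stood at 5.52, 8.33 and 6.44 CPM against 38.8, 64.3 and 61.1 (-3.01 ± 0.30, adjusted p = 3.67e-06). SLC7A1, a carrier of arginine and lysine, stood at 9.29, 10.4 and 13.6 CPM against 45.6, 64.1 and 81.1 (-2.52 ± 0.24, adjusted p = 2.16e-06). ATF4 overlapped, at 264, 261 and 348 CPM against 311, 493 and 569 (-0.65 ± 0.18, adjusted p = 0.0109), and its call was lost without MF replicate 3. STC2, a secreted glycoprotein, rose from almost none (8.49, 7.46 and 6.16 CPM against 0, 0.146 and 0.0971, ratio 79.4, 95% counting interval 26.7 to 389) and rose in the digested controls too (9.87 ± 1.40). CM+FB+MF libraries were thus low for DDIT3 and SLC7A1 and high for STC2. Endoplasmic reticulum stress genes showed no common direction, 4 higher and 4 lower of 21 (2 higher without CM+FB+MF replicate 1, CM+FB+MF replicate 3, MF replicate 1 or MF replicate 3).

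The promoters of TXNRD1 and SLC7A1 are shown for the letters that NRF2 and ATF4 bind. TGACNNNGC on either strand was in 9 of 29 NRF2 list promoters (31.0%), in 7 of the 20 whose genes fell, and in 13.5% of all. TGATGNAA was in 7 of 31 promoters of the ATF4 list (22.6%), in 5 of 13 whose genes fell, in 0 of 7 whose genes rose, and in 3.75% of all. Capitals mark 2 matches in TXNRD1 at chr12:104215529-104215828 on the forward strand and 1 in SLC7A1 at chr13:29595639-29595938 on the reverse strand.
TXNRD1: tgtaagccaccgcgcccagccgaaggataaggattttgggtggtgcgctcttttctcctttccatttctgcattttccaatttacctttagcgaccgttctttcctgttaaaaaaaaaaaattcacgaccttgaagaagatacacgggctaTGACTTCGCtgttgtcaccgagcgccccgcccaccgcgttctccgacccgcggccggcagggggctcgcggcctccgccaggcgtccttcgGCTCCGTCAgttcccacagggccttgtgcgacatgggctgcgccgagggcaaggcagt
SLC7A1: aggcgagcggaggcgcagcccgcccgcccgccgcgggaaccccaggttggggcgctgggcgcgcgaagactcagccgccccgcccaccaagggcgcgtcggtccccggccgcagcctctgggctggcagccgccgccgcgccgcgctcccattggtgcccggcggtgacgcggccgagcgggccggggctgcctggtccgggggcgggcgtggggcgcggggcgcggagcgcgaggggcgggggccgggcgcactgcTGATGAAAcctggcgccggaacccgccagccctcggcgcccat

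Targets of p53 fell in 17 of 30 cases and rose in 2 (median -0.66), with 4 rises without CM+FB+MF replicate 3. MDM2, which marks p53 for degradation, stood at 108, 128 and 133 CPM against 492, 569 and 570.3 (-2.15 ± 0.11, adjusted p = 7.01e-09). BBC3, the cell death factor PUMA, stood at 1.75, 1.87 and 3.72 CPM against 20.2, 13 and 14.1 (-2.70 ± 0.35, adjusted p = 4.13e-05). CDKN1A, the cell cycle inhibitor p21, stood at 158, 129.7 and 133 CPM against 198, 236 and 221 (-0.64 ± 0.11, adjusted p = 0.000513). All were lower in every CM+FB+MF library, CDKN1A by the smallest margin of the 3. Heat shock proteins and J-domain chaperones fell in 14 of 24 cases and rose in 2 (median -0.77), or in 1 without CM+FB+MF replicate 1, CM+FB+MF replicate 3, MF replicate 1 or MF replicate 3. HSP90AA1, an inducible chaperone, stood at 886, 858 and 942 CPM against 1934, 2387 and 2561 (-1.36 ± 0.11, adjusted p = 3.03e-07). HSPA6, a strictly inducible member, rose (2.16 ± 0.17) against that direction.

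Iron genes moved both ways. TFRC, the transferrin receptor that brings iron in, stood at 121, 91.4 and 106 CPM against 536, 662 and 674 (-2.56 ± 0.14, adjusted p = 1.02e-08). SLC11A1, which moves iron and manganese out of phagosomes, stood at 464, 458 and 439 CPM against 4.6, 6.88 and 10.6 (5.94 ± 0.20, adjusted p = 2.98e-10). SLC40A1, the exporter ferroportin, stood at 122, 147 and 149 CPM against 587, 519.9 and 478 (-1.93 ± 0.12, adjusted p = 4.21e-08). Import and export genes at the cell surface were thus both low in CM+FB+MF, without overlap, and SLC11A1 was high. SLC48A1, which moves heme out of lysosomes, fell (-2.88 ± 0.15), and FLVCR2 rose (2.66 ± 0.17). Over the list, 4 of 20 rose and 8 fell.

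Genes for secreted and matrix proteins included some of the largest rises. THBD, thrombomodulin, which turns thrombin toward protein C, stood at 144, 93.5 and 110.3 CPM against 0.363, 0.512 and 3.69 (6.26 ± 0.49, adjusted p = 3.05e-07). PLAUR, the urokinase receptor, stood at 126, 118 and 124 CPM against 26, 40 and 33.6 (1.88 ± 0.16, adjusted p = 5.76e-07). MMP19, a matrix metalloprotease, rose (2.35 ± 0.25). MF replicate 3 held the highest THBD of its group and was still far below the tissue libraries. MMP9, a gelatinase, overlapped at 269, 143 and 109 CPM against 374, 240.0 and 177 and did not pass (adjusted p = 0.167), but was called lower without CM+FB+MF replicate 1 (-1.10, adjusted p = 0.0140). HBEGF, a ligand of the EGF receptor, stood at 21.4, 25.6 and 32.4 CPM against 3.15, 3.51 and 2.33 (3.12 ± 0.27, adjusted p = 1.00e-06). Coagulation and plasminogen genes rose in 8 of 15 cases and fell in 3, matrix proteases in 8 and 2 of 24, and secreted growth factors in 7 and 4 of 26.

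The calls of collagen genes depended on 1 library of the control group. COL1A1, a chain of type I collagen, stood at 39.7, 41.8 and 70.3 CPM in CM+FB+MF against 0, 0.439 and 48.6 in MF, so MF replicate 3 was as high as the tissue libraries (adjusted p = 0.209). Without MF replicate 3 its log2 fold change was 7.46 (adjusted p = 9.40e-07). The matricellular protein gene POSTN followed the same pattern at 4.85, 4.97 and 7.02 against 0, 0 and 5.34 CPM (adjusted p = 0.211), and 8.76 without that library (adjusted p = 3.56e-05). Of 24 collagen and matrix genes 7 were called higher and 4 lower, and 12 and 4 without MF replicate 3. Expected carried CPM was 10% or more of the level for 15 of them, among them 19.7% for COL1A1, 18% for COL3A1 and 73.1% for COL5A1. COL3A1 rose (2.99 ± 0.62, and 4.99 without MF replicate 3) and so did COL5A1 (4.32 ± 0.86, and 10.49 without it), though the COL5A1 call was lost with expected carried counts subtracted. In the digested controls 19 of 23 were called higher. With expected carried counts subtracted, 5 collagen and matrix genes were called higher and 4 lower, and the list's median log2 fold change was 0.19 in place of 0.95.

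Of 11 metallothionein and S100 genes tested, 5 rose and 2 fell, or 1 without any one of the CM+FB+MF libraries, MF replicate 2 or MF replicate 3. The falls were of the metal-binding MT2A (-1.50 ± 0.54) and of S100A13 (-1.27 ± 0.15), the latter named after its values were seen. The call lost without any of those libraries was that of MT2A. S100A9, a subunit of calprotectin, stood at 241, 223 and 294 CPM against 9.92, 16.8 and 7.09 (4.46 ± 0.26, adjusted p = 2.02e-08). S100A8, its partner, was low at 3.64, 4.6 and 10 CPM against 0.484, 0.512 and 0.291 (3.76 ± 0.69, adjusted p = 0.000757). S100A4, linked to cell motility, stood at 82.8, 94.9 and 107 CPM against 10.5, 14.4 and 21.9 (2.60 ± 0.22). The groups were apart for these 3 genes. Proliferation genes were low in both groups. MKI67, a marker of dividing cells, was at 3.5, 5.6 and 4.3 CPM against 0, 0.951 and 1.07 (adjusted p = 0.0248) and TOP2A, which untangles chromosomes, at 4.04, 3.98 and 3.58 CPM against 0, 0.659 and 1.07 (adjusted p = 0.0183), and both calls were lost without CM+FB+MF replicate 2. Without MF replicate 2 the TOP2A call was lost as well, and without CM+FB+MF replicate 3 that of MKI67. Of the mitotic list 3 of 20 rose and 2 fell (1 rise without CM+FB+MF replicate 2), and of the replication list 2 of 19 rose and 3 fell. Clustered histone genes fell in 6 of 21 cases, with 0 higher by edgeR's quasi-likelihood test, by DESeq2 or at an unadjusted p under 0.05.

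The same contrast in the digested controls was small. There 349 of 12960 genes (2.69%) were called, all 349 higher in CM+FB+MF and 0 lower by edgeR's quasi-likelihood test, with 152 lower at an unadjusted p under 0.05. Of these 349, 244 had an expected carried CPM of 10% or more of their level in the Biowire macrophages. Among the 13952 genes tested in Biowires, 780 did. The share and the level both come from Biowire libraries, and no carried share was estimated for the digested controls. ADAM8 and ALOX5 were too low there to be tested. SPP1 differed by -0.069 ± 0.066, FCGR3A by -0.012 ± 0.12, SLC11A1 by -0.29 ± 0.16, MERTK by -0.15 ± 0.071, TFRC by 0.02 ± 0.061 and MDM2 by -0.0033 ± 0.05, none past the threshold. Of the 379 list members drawn that differed by at least 1 log2 unit in Biowires, 332 lay within 0.5 of no difference in the digested controls. Among all 1137 members drawn, 1063 did, so members that changed in Biowires lay within that range somewhat less often.

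The difference between the settings was tested as an interaction in 1 fit of 18 libraries. Of 14381 genes tested, 4482 (31.2%) passed, 2068 with a more positive and 2414 with a more negative difference in Biowires. Of the 5237 genes called in Biowires and tested here, 4127 passed. The interaction holds the same Biowire difference that called these genes, so this count is not separate evidence. ALOX5AP had an interaction of 11.26 ± 0.56 (adjusted p = 5.51e-11) and CD93 of 9.37 ± 0.38 (adjusted p = 8.39e-13). APOD had an interaction of -10.68 ± 0.83 (adjusted p = 1.56e-08). In the digested controls ALOX5AP differed by -0.092 ± 0.16, CD93 by 0.013 ± 0.19 and APOD by 0.11 ± 0.21, none past the threshold. SLC2A1 (0.33 ± 1.15, adjusted p = 0.865), VEGFA (0.15 ± 0.55, adjusted p = 0.871) and ID3 (1.92 ± 1.05, adjusted p = 0.19) did not pass, so for these genes a difference between the settings was not detected.

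**Figure D5:**
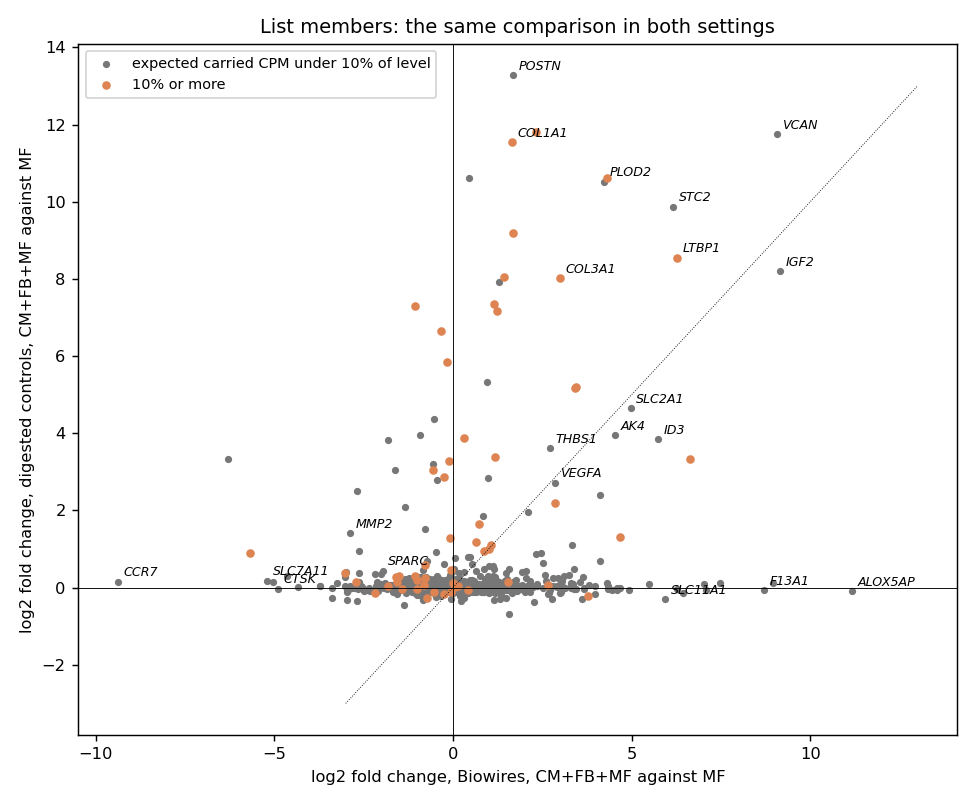
Log2 fold change of CM+FB+MF against MF macrophages in Biowires (horizontal) and in digested controls (vertical) for 1137 list members tested in both, coloured by whether the expected carried CPM is 10% or more of the Biowire level. The dotted line marks equal differences. Most points lie along the horizontal axis: 1063 of the 1137 have a digested difference within 0.5 of 0.

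A few genes were called in opposite directions. MMP2, a gelatinase, stood at 25.7, 14.8 and 15 CPM against 133, 125 and 151 in Biowires (-2.88 ± 0.21, adjusted p = 2.02e-07) and rose in the digested controls (1.42 ± 0.23, adjusted p = 0.00361). SPARC, a collagen-binding matrix protein, stood at 119, 87.3 and 75.7 CPM against 408, 357 and 336 (-1.97 ± 0.17, adjusted p = 6.90e-07) and rose there by 0.44 ± 0.089 (adjusted p = 0.0173). Every CM+FB+MF library was below every MF library in Biowires for both. In all, 24 genes fell in Biowires and rose in the digested controls, and 0 did the reverse.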

How the data were processed

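Macrophages sorted from Biowires and from digested control cells, and cardiomyocytes sorted from Biowires, were sequenced by the authors in bulk. Per the labels' protocols the libraries keep the strand of total RNA. The authors deposited raw counts per gene with no normalization, and the normalized tables beside them were not used. STAR 2.7.9a, HTSeq 0.11.0, DESeq2, R 4.3.2 and the build hg19 are named in the submitters' processing notes. Whether HTSeq counted by strand is not given here, so overlapping and antisense genes may share reads.

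Counts of the 9 Biowire macrophage libraries were fitted in 1 model with 1 mean per group, using R 4.3.3, edgeR 4.0.16 (TMM scaling, filterByExpr, quasi-likelihood test, Benjamini-Hochberg adjustment over all genes tested) and limma 3.58.1. DESeq2 1.42.0 was an alternative. Errors of log2 fold changes are approximate. Each is the size of the log2 fold change divided by the square root of its F statistic, from the fit that gave it. For genes at or near 0 in a group they can be smaller than the counting error. The threshold was an adjusted p of 0.05. The difference between Biowires and digested controls was tested in 1 fit of 18 libraries. The steps were tested on simulated counts. Columns of the digested control table and of the table of cardiomyocytes were matched to a group, not to a numbered sample, and 0 columns belonged to no sample here.

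CM+FB+MF libraries held fewer counts than MF libraries, which widens the errors of low genes, and intervals and floors cover counting error only. A fold against a group at 0 is a lower bound with 3 counts over that group in place of 0. The carried share is the cardiomyocyte marker sum of a library, less its mean in MF, divided by the mean sum in sorted CM+FB cardiomyocytes. No 2 libraries of a Biowire group agreed within sampling noise, since their chi-square divided by its degrees of freedom was 5.55 to 32.2.

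Genes named were, among those called without overlap and at 5 CPM or more in the higher group, the 12 largest rises with under 10% carried RNA and the 12 largest falls, the 6 largest rises with more, the 10 largest gains and losses in CPM, the largest interactions, and of each list its preset members and up to 5 called members. TNNI3 and S100A13 were named after their values were seen. Some genes the rule names are not reported here. Members and all 57 lists were chosen with earlier results of these data known. Promoter sequences come from RefSeq (GRCh38.p14) and were matched by symbol, since the counts use hg19. Alternatives were other scaling, no filter, thinned counts, a replicate block, fewer libraries, a minimum change and subtraction of carried counts.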

Additional observations from a re-analysis of the deposited data

Results flagged for a closer look

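These results stand out because the difference between CM+FB+MF and MF macrophages was not the same in Biowires and in digested controls, by the interaction test in edgeR. Values are the Biowire difference minus the digested difference on the log2 scale. The difference was more positive in Biowires for 2068 genes and more negative for 2414. Among the largest positive values, the pentraxin gene NPTX1 reached 14.19, ALOX5AP of leukotriene synthesis 11.26, the metalloprotease gene ADAM8 9.56, the transporter gene ABCB4 9.41 and the receptor gene CD93 9.37. ADAM8 was too low in the digested controls to be tested there alone, so its value rests largely on the Biowire rise. The matricellular gene POSTN had -11.60, the lipid carrier gene APOD -10.68, the collagen gene COL1A1 -9.88, the chemokine gene CXCL11 -9.85 and DAPL1 -9.62. POSTN and COL1A1 rose in the digested controls and were high in MF replicate 3 of the Biowires. The gelatinase gene MMP2 (-4.29) and the matrix gene SPARC (-2.40) were called in opposite directions in the settings. Fits of genes at 0 in a group depend on the prior count, so their values give an order of size only.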

How the results depend on the processing

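The counts of 2490 genes higher and 2759 lower lay within 1.5 times their value under each setting but one. Testing against a minimum log2 change of 1 left 677 and 518, and 426 and 484 for the interaction, and 243 list members in place of 778, since small changes then no longer count. With 1 library left out, genes higher numbered 2096 to 2436, genes lower 2216 to 2656, interactions 1709 to 2148 positive and 2016 to 2492 negative, and list members 683 to 761. DESeq2 called 2790 higher and 2718 lower. Of 186 named genes past the threshold, 177 kept their call under all settings other than the minimum change, and 0 reversed. The 8 that lost it without 1 library are named in the text. The TAP1 call was also lost with DESeq2.

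With the replicate number as a block (replicate block) 2581 genes were higher and 2778 lower, and the interaction gave 2345 and 2639. In the interaction the block separated only the Biowire libraries, since the digested columns carry no number that pairs. Same-numbered libraries correlated at 0.229, 0.085 and 0.090, and pairs with different numbers at -0.193 to 0.120. Not every library correlated best with its own number. With so few libraries, these values cannot tell whether same-numbered samples share a batch. Under the block 0 named genes lost their call.

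With 1 library left out, marker sums (log2) ranged from 0.21 to 0.29 for macrophage, 4.68 to 5.30 for cardiomyocyte, -0.49 to -0.32 for fibroblast, -0.66 to -0.55 for endothelial, 0.40 to 0.63 for smooth muscle, -0.49 to 0.12 for pluripotency, -0.050 to 0.18 for mast cell, 0.33 to 1.02 for erythroid and 1.22 to 1.60 for lymphoid markers. Without the most abundant marker the fibroblast (1.42), pluripotency (0.39), mast cell (-0.90), erythroid (-0.22) and lymphoid (-0.15) sums reversed, and the cause was not tested. The carried share was 2.56%, 5.83% and 7.80% by the highest single marker, and 1.36% in replicate 2 without the most abundant one. Depth limits genes at a few counts, mostly those near 0 in 1 group.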
